A study of Mus musculus with 4 samples.

Results

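A set of 10 transcripts of lymphocytes and antibody production was followed in liver RNA of 4 mice: the immunoglobulin constant genes Ighm, Igkc and Igha, the joining chain Jchain, the B cell receptor chain Cd79a, the T cell genes Cd4 and Cd3e, the interleukin-2 receptor chains Il2rb and Il2rg, and the chemokine Ccl5. They were found by symbol, and are 10 of the 46603 gene identifiers in the deposited count table. HuRflox/flox mice received AAV8 with Cre recombinase under the thyroxine-binding globulin promoter (TBGP), which drives expression in hepatocytes (HuR hKO, mice 3 and 4), or the same virus type and promoter with GFP (control, mice 1 and 2). All 4 mice carried the floxed HuR alleles, were injected through the tail vein with a viral vector and ate the Western diet with sugar water (WDSW) for 4 weeks, with 42% of the kcal from fat, 0.1% cholesterol and a drink of 23.1 g/L fructose and 18.9 g/L glucose. The study matched its groups for age and sex, and used both males and females in its in vivo work. The labels do not state the age, and the sex of these 4 mice is not given here. The lymphocytes themselves are not the cells in which the promoter drives Cre.

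B cells carry membrane IgM, built from the mu heavy chain (Ighm) and mostly kappa light chains (Igkc), and signal through Cd79a and Cd79b. Plasma cells, the antibody-secreting descendants of B cells, make much more immunoglobulin mRNA per cell, and those that secrete IgM or IgA also make Jchain, which links the subunits of a polymer. T cells signal through CD3 chains such as Cd3e, with CD4 or CD8 as co-receptor, and T and NK cells receive interleukin-2 and interleukin-15 through Il2rb and the common gamma chain Il2rg and release the chemokine CCL5. Resident and circulating lymphocytes are a minority of the cells of a mouse liver, so their transcripts are scarce in whole-liver RNA.

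The libraries held between 13032095 and 19715577 counts, and the 10 genes took between 0.00111% of the counts (mouse 1) and 0.00458% (mouse 2). Elavl1, the gene that encodes HuR, had 28.3 and 25.9 CPM (counts scaled to a common library size) in the control libraries and 37.7 and 34.4 CPM in the libraries labelled HuR hKO. Both of the latter were above both controls, which goes against the label. The log2 fold change was 0.41 with a standard error, SE, of 0.135 and an adjusted p of 0.545 by the edgeR quasi-likelihood test. By contrast, the paper reports less HuR mRNA and protein in HuR hKO livers, with its loss from hepatocytes shown by immunofluorescence. Counts over the whole gene cannot show whether an exon was deleted, and Elavl1 overlaps Ccl25 on the opposite strand, so every direction below is between the libraries labelled HuR hKO and the control libraries. A gene without a count could still have been present at 0.226 CPM in mouse 1 or 0.159 CPM in mouse 4, the level of 3 counts. Such limits, and the intervals given below, cover counting error only. In RNA from whole tissue, fewer lymphocytes and less RNA per lymphocyte cannot be told apart.

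The antibody genes differed more between mice of the same group than between the groups. Ighm (chr12:113418558-113422730 of GRCm38, minus strand) had the highest mean CPM of the 10. It had 33 counts in control mouse 1 and 340 in control mouse 2, against 187 in mouse 3 and 310 in mouse 4, which is 2.48, 25.4, 13.03 and 16.4 CPM. Both libraries labelled HuR hKO thus lay between the 2 controls. Igkc (chr6:70726435-70726966, plus strand), the kappa constant gene, had 15, 118, 22 and 195 counts in mice 1 to 4, or 1.13, 8.80, 1.53 and 10.3 CPM. One mouse of each group was high and one low. Igkc overlaps Gm30211 on the same strand, and how reads shared by the 2 were counted is not known.

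Jchain (chr5:88519809-88527891, minus strand) had 16, 25, 4 and 72 counts in mice 1 to 4 (1.20, 1.86, 0.279 and 3.82 CPM). Its lowest and highest values were both in the group labelled HuR hKO, so the groups overlapped. Igha (chr12:113254830-113260236, minus strand), the heavy chain of the mucosal antibody IgA, had 4, 20, 9 and 12 counts (0.301, 1.49, 0.627 and 0.636 CPM). It fell below the filter on low counts, which asked for 0.729 CPM (on unscaled totals) in at least 2 libraries and was reached by mouse 2 only, and it was the only one of the 10 that was not tested; without the filter edgeR gave it a log2 fold change of -0.51 (SE 0.674, adjusted p = 0.891).

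**Figure D1:**
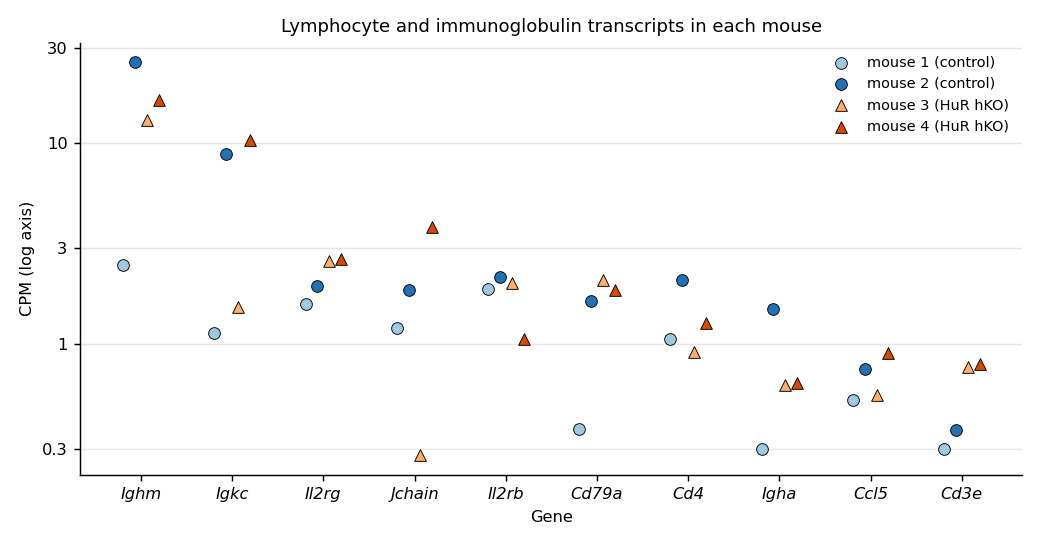
CPM of the 10 genes (log axis), ordered by mean CPM, with 1 point for each mouse (circles, control; triangles, HuR hKO). Mouse 1 is the lowest point for 7 of the 10 genes, and for Ighm, Igkc and Jchain the points of a group lie far apart.

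The spread within each group was measured as the ratio between its 2 mice, with an exact 95% interval for counting error. Between the controls, mouse 2 over mouse 1, Ighm differed 10.2-fold (interval 7.14 to 15.1) and Igkc 7.80-fold (4.54 to 14.4). Igha differed 4.96-fold (1.66 to 20.0) and Cd79a 4.37-fold (1.61 to 14.8), and Cd4 1.98-fold (1.01 to 4.08). These intervals all lie above 1, so the differences were larger than counting error. Over the 12970 tested genes with counts in both controls, 99.9% had a smaller log2 ratio than Ighm, 99.8% a smaller one than Igkc and 99.1% a smaller one than Cd79a.

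Between mice 4 and 3, both labelled HuR hKO, Jchain differed 13.7-fold (interval 5.12 to 51.6) and Igkc 6.75-fold (4.33 to 11.01), whereas Ighm differed only 1.26-fold (1.05 to 1.52). Cd79a, Igha and Cd4 had intervals that included a ratio of 1 in this pair, and Il2rb was lower in mouse 4 (ratio 0.525, 0.281 to 0.960). For Cd3e, Il2rg and Ccl5 the interval included 1 in both groups. The large differences within a group were therefore those of the antibody genes, and of Cd79a in the controls. The biological coefficient of variation that edgeR estimated was 0.512 for Ighm, 0.619 for Igkc and 0.570 for Jchain, against a median of 0.137 over all tested genes, and it was above that median for all 9 tested members.

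**Figure D2:**
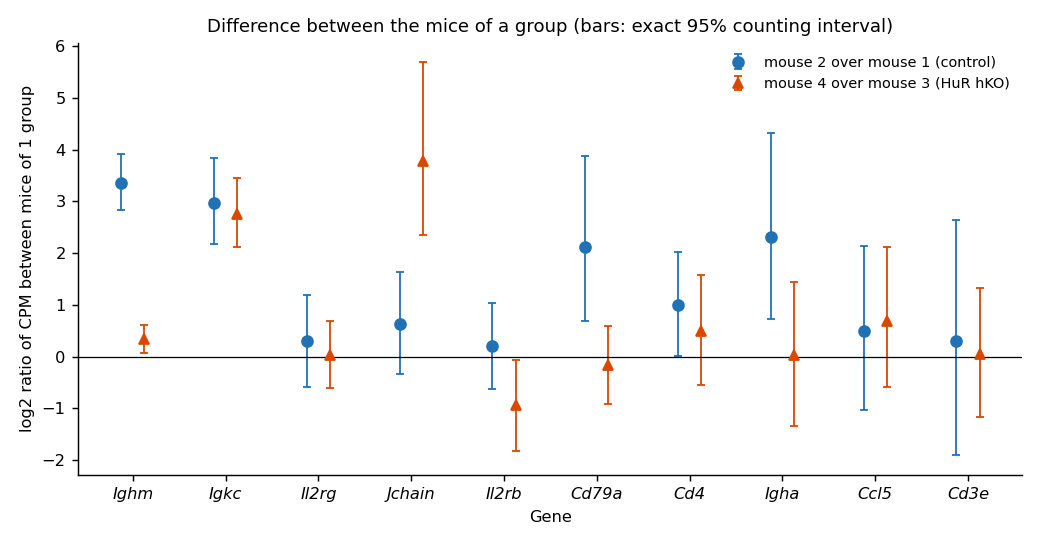
log2 ratio of CPM between the 2 mice of each group for the 10 genes, with exact 95% counting intervals as bars (circles, mouse 2 over mouse 1, control; triangles, mouse 4 over mouse 3, HuR hKO). Ighm stands apart in the controls at 10.2-fold, Jchain in the group labelled HuR hKO at 13.7-fold, and Igkc in both.

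The make-up of the antibody transcripts also differed from mouse to mouse. Ighm took 68.8% of the heavy chain constant counts in mouse 1 (33 of 48 counts, Wilson 95% interval 54.7 to 80.1%), 85.9% in mouse 2 (82.1 to 89.0%), 81.0% in mouse 3 (75.4 to 85.5%) and 81.4% in mouse 4 (77.2 to 85.0%). IgM was the main class in every library. Igha took 8.33% in mouse 1 (3.29 to 19.6%), 5.05% in mouse 2 (3.29 to 7.67%), 3.90% in mouse 3 (2.06 to 7.24%) and 3.15% in mouse 4 (1.81 to 5.42%), with intervals that overlapped. Ighd, the class that mature naive B cells carry beside IgM, had 6, 15, 22 and 30 counts in mice 1 to 4, and Ighg2b had 2, 16, 4 and 24. Ighg3 was at 0 in every library, and the light chain pool was mostly kappa, with Igkc at between 81.5% (mouse 3) and 94.7% (mouse 4) of the light chain constant counts.

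The balance of light to heavy chain separated the 2 mice labelled HuR hKO. Igkc made up 31.3% of the Igkc and Ighm counts in mouse 1 (interval 20.0 to 45.3%), 25.8% in mouse 2 (21.97 to 29.96%), 10.5% in mouse 3 (7.06 to 15.4%) and 38.6% in mouse 4 (34.5 to 42.9%). The interval of mouse 3 lies below those of the other 3 mice. Jchain relative to Ighm was also lowest in mouse 3, at 2.09% of the counts of the pair (0.817 to 5.26%, on 4 Jchain counts). It was 18.9% in mouse 4 (15.2 to 23.1%) and 6.85% in mouse 2 (4.68 to 9.92%). Here the intervals of mice 3 and 2 overlapped. Mouse 1 stood at 32.7% (21.2 to 46.6%) with its low Ighm. Mouse 3, with Ighm within 1.26-fold of mouse 4, thus had little Igkc and Jchain beside it.

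Variable segments give the part of the antibody that differs from one B cell clone to the next. Of the 382 immunoglobulin variable, diversity and joining segments in the table, 66 had a count in some library, and the diversity and joining segments had none. Together they held 10 counts in mouse 1, 94 in mouse 2, 19 in mouse 3 and 135 in mouse 4, spread over 9, 39, 13 and 35 segments. The low and high mice were those of Igkc. The segment with the highest mean CPM was Igkv8-30 (chr6:70117061-70117620), with 0, 5, 0 and 50 counts in mice 1 to 4. It took 45.0% of the kappa variable counts in mouse 4 (Wilson interval 36.1 to 54.3%) and 7.94% in mouse 2 (3.44 to 17.3%). Igkv3-2 followed with 0, 16, 0 and 4 counts, and Igkv17-127 with 0, 7, 1 and 1. The leading segment thus differed between the 2 mice with the most antibody transcripts, Igkv3-2 in mouse 2 and Igkv8-30 in mouse 4. Closely related segments share sequence, and how such reads were assigned is not known. T cell receptor variable, diversity and joining segments came to 1, 10, 5 and 6 counts in all.

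**Figure D3:**
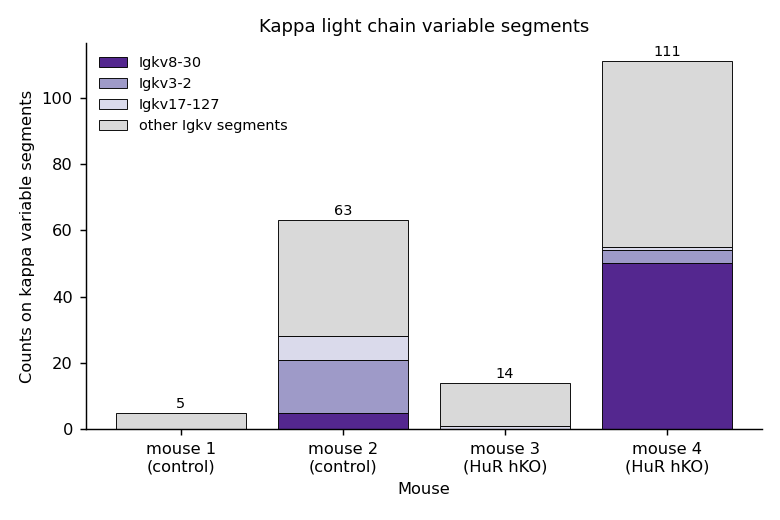
Counts on kappa variable segments in each mouse, with the 3 segments of highest mean CPM coloured and the others in grey. The bars hold 5, 63, 14 and 111 counts, and Igkv8-30 makes up 50 of the 111 in mouse 4.

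B cell genes were low in control mouse 1 and close together in the other 3 mice. Cd79a (chr7:24897381-24902197, plus strand) had 5, 22, 30 and 35 counts in mice 1 to 4, or 0.376, 1.64, 2.09 and 1.86 CPM. Its partner Cd79b had 7, 33, 28 and 28 counts, and Pax5, the transcription factor of B cell identity, had 1, 16, 17 and 17. Ms4a1 (CD20) and the IgM receptor Fcmr were at 0 in mouse 1. Over the 18 B cell markers, 12 were lowest in mouse 1, and the summed level was 7.59 CPM in mouse 1, 22.4 in mouse 2, 20.3 in mouse 3 and 17.9 in mouse 4. Those with the highest mean CPM were Cd37, Blnk, Cd79b and Cd79a. Of the 9 tested, 7 had a positive and 2 a negative log2 fold change, 0 passed an adjusted p of 0.05 or had an unadjusted p under 0.05, and the median log2 fold change was 0.42. Without mouse 1 the summed level was lower in the group labelled HuR hKO (log2 difference -0.23, against 0.55 with all mice), so its direction rested on that library.

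The plasma cell list could not be read as a list in this tissue, because its most abundant genes are also made by hepatocytes or bile duct cells. These were Pigr, the receptor that carries polymeric antibodies into bile (865 to 1215 CPM), Xbp1 (138 to 238 CPM), Sdc1 (165 to 209 CPM) and the secretory pathway gene Fkbp11. Fkbp11 had 8.34, 9.10, 13.9 and 18.4 CPM in mice 1 to 4. It was past the study's threshold, a fold of at least 1.8 with an unadjusted p under 0.05, but not past the adjusted one (log2 fold change 0.89, SE 0.191, edgeR adjusted p = 0.239). Here and below that threshold is applied to the edgeR p, so a gene past it need not be a call of the study. The scarcer genes of the list did not share a pattern. Mzb1, which is more specific to antibody-secreting cells, had 0, 11, 4 and 10 counts in mice 1 to 4, and Tnfrsf17 (BCMA) had 0, 1, 0 and 1. Derl3, a protein of the endoplasmic reticulum, had 82, 7, 41 and 39 counts, highest in mouse 1 and lowest in mouse 2. Prdm1, Irf4 and Pim2 had 3 to 7, 3 to 5 and 34 to 43 counts.

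Among T cell genes, Cd3e (chr9:44998740-45009627, minus strand) had 4 and 5 counts in the controls and 11 and 15 in the libraries labelled HuR hKO, or 0.301, 0.373, 0.766 and 0.795 CPM. The groups did not overlap and each was tight, yet the gene had only 35 counts in all and passed the filter only through the group in which it was higher. Its log2 fold change of 1.20 (standard error 0.588) had an adjusted p of 0.689 from edgeR, and the annotated genes Gm48719 and Gm48720 overlap it. The other CD3 chains did not follow it as clearly. Cd3g had 7, 9, 11 and 13 counts and Cd3d 4, 3, 2 and 11. Of the constant genes of the T cell receptor beta chain, Trbc1 had 8, 5, 13 and 10 counts and was not tested. Trbc2 had 11, 19, 5 and 11 counts and passed the filter only through the controls, in which it was higher (log2 fold change -1.22, SE 0.569, edgeR adjusted p = 0.675).

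Cd4 (chr6:124864692-124888221, minus strand), the co-receptor of helper T cells that some myeloid cells also carry, had 14, 28, 13 and 24 counts, or 1.05, 2.09, 0.906 and 1.27 CPM, and the groups overlapped. Of the other subset genes, Runx3 had 3, 4, 10 and 6 counts, Cd8a had between 5 and 6 counts in each library, Foxp3 between 0 and 4 and Ctla4 had 0 throughout. Zbtb7b, the gene of the subset list with the highest mean CPM (72.1 to 74.5 CPM), is expressed by hepatocytes too. Over the 12 subset genes, 3 were tested, all 3 were lower, and 0 had an unadjusted p under 0.05 from edgeR.

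Of the 19 T cell markers 6 were tested, 2 of them higher and 4 lower (median -0.02 on the log2 scale). One of the 2 that were higher was Zap70, the kinase that binds the CD3 and zeta chains, with 6.09 and 7.53 CPM in the controls and 11.1 and 16.4 CPM in the libraries labelled HuR hKO. It was past the study's threshold but not the adjusted one (log2 fold change 1.02, SE 0.235, edgeR adjusted p = 0.305). Zap70 took between 34.3% and 60.1% of the list's summed CPM. The sum was 17.7, 20.95, 23.9 and 27.3 CPM in mice 1 to 4, and 11.7, 13.4, 12.8 and 10.9 CPM without Zap70, so the separation of the groups came from that gene. Tcf7 (2.17 to 3.76 CPM) and Thy1 (1.88 to 2.39 CPM) were next in abundance, followed by Lck.

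Neither of the shared receptor chains of interleukin-2 and interleukin-15 passed the test. Il2rg (chrX:101264378-101268255, minus strand), the common gamma chain used by receptors for several interleukins, had 21 and 26 counts in the controls and 37 and 50 in the libraries labelled HuR hKO, or 1.58, 1.94, 2.58 and 2.65 CPM. The groups did not overlap (log2 fold change 0.57, SE 0.339, edgeR adjusted p = 0.749). The paper reports Il2rg as significantly raised in livers of HuR hKO mice on this diet, by RNA-seq and by RT-PCR in more mice. Gm20489 overlaps it on the same strand. Il2rb (chr15:78479256-78495271, minus strand), the beta chain, had 25, 29, 29 and 20 counts (1.88, 2.16, 2.02 and 1.06 CPM), and mouse 4 alone was low, with a log2 fold change of -0.41 (SE 0.428, edgeR adjusted p = 0.865) that was 0.00060 without that mouse.

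The alpha chain Il2ra had 3, 3, 4 and 4 counts, and the ligand Il2 had 1, 1, 1 and 2. Il15 had 10, 8, 6 and 38 counts, so mouse 4 was high and mouse 3 was not. The signalling partners were abundant and even, with Jak1 at 66.1 to 81.1 CPM, Stat5b at 42.4 to 46.7, Il15ra at 31.9 to 41.3 and Il4ra at 17.8 to 22.6. Of the 15 genes of the system 9 were tested, 5 of them higher and 4 lower. Their median log2 fold change was 0.03, and 0 had an unadjusted p under 0.05 from edgeR.

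NK and cytotoxic genes had few counts. Their 17 genes summed to 3.53, 4.03, 3.90 and 3.66 CPM in mice 1 to 4, and only Klrk1 was abundant enough to be tested, with 8, 15, 15 and 24 counts (log2 fold change 0.43, adjusted p = 0.880 from edgeR). Ncr1, a defining NK cell receptor, had 0, 1, 1 and 0 counts, and Prf1 (perforin) had 0, 0, 1 and 0. Nkg7 had between 6 and 12 counts, and Cd160 and Tbx21 between 1 and 11.

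Ccl5 (chr11:83525778-83530518, minus strand), a chemokine released by T and NK cells and by other cells, had 7, 10, 8 and 17 counts, or 0.526, 0.746, 0.557 and 0.901 CPM. Each group held 1 lower and 1 higher mouse, and the log2 fold change of 0.22 (standard error 0.560) had an adjusted p of 0.958 from edgeR. Ccr3, a receptor of the chemokine, was at 0 throughout. The T cell chemokines Cxcl16 (6.31 to 10.3 CPM), Cxcl9 (4.62 to 7.59 CPM) and Cxcl10 (2.68 to 3.90 CPM) had higher CPM than Ccl5 in every library, and Cxcr6, the receptor of Cxcl16, had 10, 19, 10 and 7 counts. Ackr2, a receptor that takes up inflammatory chemokines without classical signalling, had 9, 11, 25 and 31 counts and passed the study's threshold only (log2 fold change 1.17, SE 0.436, edgeR adjusted p = 0.587). Of the 7 genes tested in this list 6 were higher and 1 lower, and the median log2 fold change was 0.31.

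Between the groups as labelled, 7 of the 9 tested members had a positive log2 fold change and 2 a negative one. Over all 13001 tested genes 50.3% were positive. The median was 0.29 for the members and 0.00195 for all genes. By the edgeR quasi-likelihood test 0 of the 9 passed an adjusted p of 0.05, where 0.0154% of all tested genes passed as higher and 0.00769% as lower, and the members' adjusted p-values lay between 0.689 and 0.988. At an unadjusted p under 0.05 the count was also 0, against 7.43% of all tested genes. The study's threshold was passed by 0 members, against 1.21% of tested genes as higher and 0.915% as lower. DESeq2, edgeR's exact test and limma-voom called 0 members as well. The fold changes with standard errors were 0.09 (0.716) for Ighm, 0.29 (0.888) for Igkc, 0.47 (0.842) for Jchain, 0.96 (0.585) for Cd79a and -0.51 (0.485) for Cd4. An exact permutation test of 2 against 2 libraries cannot give a two-sided p below 0.333, so no sum over a list could pass 0.05.

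How many members were higher depended on single libraries of both groups. Without control mouse 1, 4 of 10 tested members were positive and 6 negative, and Ighm had a log2 fold change of -0.79 (adjusted p = 0.188 from edgeR). Without control mouse 2, 8 of 9 were positive, and Ighm passed the test, higher in the group labelled HuR hKO at 2.57 on the log2 scale (edgeR adjusted p = 0.00936, with the lone control assumed to vary like the other group). Ighm was the only member called under any of the settings tried. Without mouse 4, 4 of 10 were positive and Jchain had -2.42, whereas without mouse 3 Jchain had 1.29. Il2rg stayed between 0.42 and 0.73 whichever mouse was left out. Cd3e lay between 1.04 and 1.36, a sign favoured by the filter, which it passed only through the libraries labelled HuR hKO. Cd79a stayed positive too, between 0.25 and 2.37, with the low value without mouse 1. With all 4 mice it reached the filter's cut in 1 control library and in both labelled HuR hKO. The controls alone would not have kept it.

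**Figure D4:**
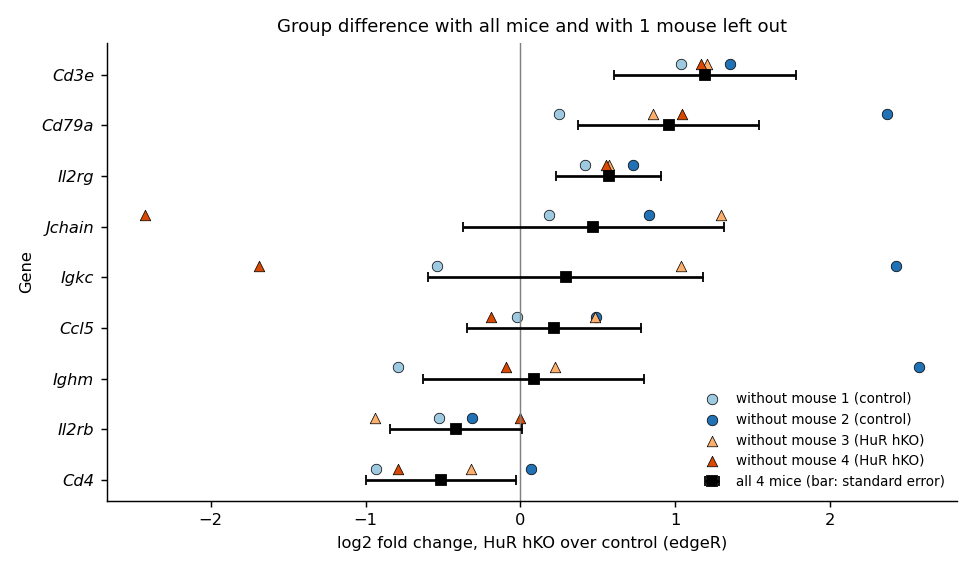
log2 fold change (HuR hKO over control, edgeR) of the 9 tested members with all 4 mice (squares, bars are standard errors) and after leaving out 1 mouse at a time (circles, a control left out; triangles, a mouse labelled HuR hKO left out). Ighm spans -0.79 to 2.57 and Jchain -2.42 to 1.29, while Il2rg stays between 0.42 and 0.73.

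The groups were separated for Il2rg, with the libraries labelled HuR hKO above the controls, and 0 members were separated the other way. Over all tested genes 19.3% were separated upwards and 18.8% downwards. Cd79a and Cd3e had the same order. Cd3e entered the test only through the group in which it was higher, and the controls alone would not have kept Cd79a. These genes are therefore not counted, and nothing is read from their separation. That of Il2rg is a description. The promoter sequences of Cd79a, Cd3e and Il2rg are shown, a choice made after these values were seen. Nothing is read from that choice, and a link between the sequences and the order of the groups was not tested. These genes are signalling chains of the B cell receptor, the T cell receptor and the common gamma chain receptors. The windows are the bases before the RefSeq gene start (GRCm38.p6), written 5′ to 3′ on the gene's strand. GGAAGT or its reverse complement ACTTCC is in capitals, a form of the sequence bound by factors of the ETS family. Many of these factors act in lymphocytes. The Cd79a window is given up to the start of the GENCODE gene, followed by the 30 bases around the match further in.
Cd79a, chr7:24897247-24897380, plus strand: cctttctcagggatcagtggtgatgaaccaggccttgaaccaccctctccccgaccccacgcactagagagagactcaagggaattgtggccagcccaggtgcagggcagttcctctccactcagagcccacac
Cd79a, chr7:24897431-24897460, plus strand: cacggctgaacaGGAAGTgaggcggagttt
Cd3e, chr9:45009612-45009861, minus strand: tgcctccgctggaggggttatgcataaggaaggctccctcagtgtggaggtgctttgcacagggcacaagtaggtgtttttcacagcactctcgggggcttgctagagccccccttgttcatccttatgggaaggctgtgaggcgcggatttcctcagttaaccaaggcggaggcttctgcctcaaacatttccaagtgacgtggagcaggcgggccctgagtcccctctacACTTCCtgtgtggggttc
Il2rg, chrX:101268256-101268505, minus strand: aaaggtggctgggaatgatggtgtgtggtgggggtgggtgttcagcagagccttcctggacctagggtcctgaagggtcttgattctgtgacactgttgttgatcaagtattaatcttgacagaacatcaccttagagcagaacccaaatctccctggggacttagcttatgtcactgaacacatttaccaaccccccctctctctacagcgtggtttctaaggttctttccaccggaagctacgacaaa

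The 250 bases before the start were searched on both strands. A match to GGAAGT or ACTTCC was found in Cd79a, 54 to 49 bases before the start, and in Cd3e, 18 to 13 bases before it. Il2rg and Jchain held no match to these exact letters. Other forms of the ETS sequence were not searched for, so their absence is not shown. Of all 32851 promoters of the same length 19.7% held GGAAGT or ACTTCC. The octamer ATGCAAAT, a sequence of immunoglobulin gene promoters bound by Oct factors, was in 0 of these 4 windows and in 1.60% of all promoters, on either strand. The promoter table held 4 of the 10 members, and Ighm, Igkc, Igha, Cd4, Il2rb and Ccl5 were not among them.

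Per kilobase of exon, where levels of different genes can be compared, Igkc led with a mean of 10.2 CPM per kb over the 4 mice and Ighm followed with 7.60. Their ranges overlapped, and Igkc was the higher of the pair in 3 of 4 libraries. The next gene, Cd79a, stood at 1.02 CPM per kb, 7.42-fold below Ighm, and was below Ighm in all 4 libraries, though the ranges over mice overlapped. Il2rg (0.916), Jchain and Ccl5 (both 0.711) were close to it, with overlapping ranges. Il2rb (0.415), Cd4 (0.330) and Igha (0.286) came after them, and Cd3e was last at 0.137. Ccl5 was above Il2rb in all 4 libraries and their ranges did not overlap. From Cd79a down, each of the other neighbours in the order overlapped in range.

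The low values of mouse 1 were largest for immunoglobulin and B cell genes, but other leukocyte genes were also low there. Mouse 1 was the lowest library for 6 of the 9 tested members, 7 of 9 tested B cell genes and all 4 tested immunoglobulin genes, where 28.3% of all tested genes were lowest there. The 12 immunoglobulin constant genes summed to 4.81 CPM in mouse 1, 39.7 in mouse 2, 18.0 in mouse 3 and 31.1 in mouse 4. Of the 10 pan-leukocyte genes 6 were lowest in mouse 1. Ptprc (CD45) had 5.49 CPM there against 8.05, 8.43 and 7.16 CPM in mice 2 to 4, and Coro1a had 4.74 CPM against 8.20, 8.85 and 7.05. The sum of the list was flat, at 143, 152, 163 and 142 CPM, with Lcp1 (70.7 to 85.4 CPM) as its main part. Kupffer cell and macrophage genes summed to 281, 295, 331 and 309 CPM, and 7 hepatocyte genes to between 69800 and 79800 CPM. Of the pan-leukocyte genes, Cd48 was past the study's threshold and lower, with 24, 19, 11 and 15 counts (log2 fold change -1.03, SE 0.442, edgeR adjusted p = 0.660).

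Erythroid genes, a measure of the blood left in the tissue, summed to 363, 450, 488 and 710 CPM in mice 1 to 4, lowest in mouse 1 and highest in mouse 4. Of the 6 genes, 5 were tested, all 5 with a positive fold change (median 0.52 on the log2 scale) and 3 at an unadjusted p under 0.05 from edgeR. The ratio of mouse 2 to mouse 1 was 1.24 for this sum, against 8.26 for the immunoglobulin constant genes and 2.95 for the B cell genes. Bile duct genes summed to 52.8, 27.5, 39.6 and 49.7 CPM, lowest in mouse 2. Dendritic cell genes summed to between 8.75 CPM (mouse 4) and 14.1 CPM (mouse 3), and neutrophil genes to between 1.54 and 3.28 CPM. Endothelial genes lay between 166 and 217 CPM, stellate cell genes between 180.0 and 235, platelet genes between 3.23 and 4.25 and pancreas genes between 9.62 and 20.5. The part of blood content or of these other cells in the lymphocyte values was not tested.

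**Figure D5:**
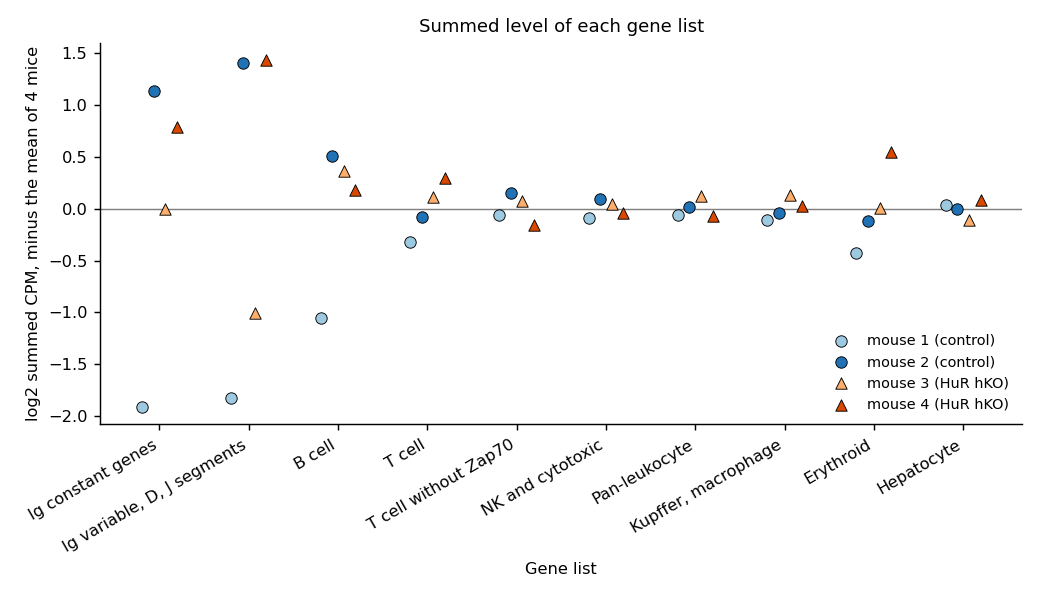
log2 summed CPM of each gene list in each mouse, minus the mean of the 4 mice (circles, control; triangles, HuR hKO). Immunoglobulin and B cell lists spread widely with mouse 1 lowest, whereas the NK, pan-leukocyte, macrophage and hepatocyte sums stay within a narrow band.

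Genes whose profile over the 4 libraries was most like that of Ighm or Igkc were sought among 12234 tested genes with a mean of at least 1 CPM, by the root mean square distance of centred log2 CPM. For Ighm they were Ugt1a10 (distance 0.266), Gm10680 (0.278), Gm13394 (0.280), Acot3 (0.297) and Zbtb7c (0.373). Ugt1a10, a glucuronosyltransferase, had 18, 130, 117 and 143 counts in mice 1 to 4, and Acot3, a peroxisomal acyl-CoA thioesterase, had 125, 880, 499 and 1275. Both were low in mouse 1 as Ighm was, and neither is a lymphocyte marker. For Igkc they were Cenpm (0.270), Fam83f (0.476), Gm15622 (0.506), Gm19918 (0.606) and Orm3 (0.608). Cenpm, a centromere protein, had 3, 25, 7 and 41 counts, and Orm3, of the acute phase orosomucoid family, had 22, 87, 11 and 107. With 4 libraries such a likeness is a description only.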

How the data were processed

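Liver RNA of 4 mice was sequenced, 2 labelled control and 2 labelled HuR hKO. The authors deposited 1 table of counts per Ensembl gene for the 4 libraries, not normalized; the submitters' processing notes name RSEM and GRCm38, and versions, strand and rounding are not given in the sources used here. The values are whole numbers, so estimated counts, if any, had been rounded. Symbols came from a table of identifiers (46005 of 46603 matched) and coordinates from GENCODE M21. edgeR 4.0.16 under R 4.3.3 scaled the counts by TMM after filterByExpr (minimum of 10 counts, total of 15), which kept 13001 genes. The group comparison used edgeR's quasi-likelihood test with Benjamini-Hochberg adjustment over all genes kept. The study's threshold (fold 1.8, unadjusted p under 0.05) was applied to the p-values of the same test. The test was also run on simulated counts. Their outcome is not given here, and nothing about the members is drawn from it. CPM use the TMM-scaled library sizes. Shares have Wilson and ratios exact 95% intervals (scipy 1.17.1); a count of 0 allows 3 counts.

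The members and gene lists were chosen with earlier results of these data known. The text names all 10 members, up to 4 list genes by mean CPM, genes past a threshold, the 3 leading variable segments and the 5 nearest genes of the 2 most abundant members; other list genes were chosen after their values were seen. Some genes that this rule covers are left out of the text. Alternatives were other scalings, filters and tests (DESeq2 1.42.0, limma-voom 3.58.1) and leaving out each mouse. Columns were matched to mice by the number in the sample description.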

Additional observations from a re-analysis of the deposited data

How the results depend on the processing

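Of 122 log2 fold changes of members recomputed under 14 other settings, 111 kept their direction and stayed above an adjusted p of 0.05 from edgeR, DESeq2 or limma, 1 passed it (Ighm without control mouse 2) and 10 changed sign. With 1 mouse left out, Ighm ranged from -0.79 to 2.57, Igkc from -1.69 to 2.43, Jchain from -2.42 to 1.29, Cd4 from -0.93 to 0.066, Il2rb from -0.94 to 0.00060 and Ccl5 from -0.19 to 0.49. Jchain was at -0.28 with limma-voom. Members called ranged from 0 to 1, members past the study's threshold from 0 to 3 and members with a positive fold change from 4 to 8 with a mouse left out. A minimum of 10 counts in every library left 5 members, 3 of them positive. Without scaling for library size, which moved the median of all genes to 0.31, 2 members (Cd3e and Cd79a) passed the study's threshold.

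Over all genes, 2 were called higher and 1 lower. The counts were 4 and 4 without TMM factors, 130 and 25 without scaling, 80 and 81 without a filter, 50 and 35 with DESeq2, 69 and 51 with the exact test, and 4 and 4 with the robust fit. Those called higher were 1 with limma-voom and 1 with the minimum of 10 counts. With a mouse left out they ranged from 0 to 32 higher and 0 to 44 lower. The NK sum, with a log2 difference of 0.0025, went to -0.00035 with DESeq2 size factors, -0.0073 with upper quartile factors and -0.0055 without TMM factors. The T cell sum went from 0.40 to -0.087 without Zap70, which was chosen after its values were seen. With light and joining chains in the denominator, Ighm took 41.3%, 60.9%, 71.4% and 47.0% in mice 1 to 4. Except where a construction shows it, the cause was not tested.

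No paired analysis was possible because the groups share no replicate number. Most members had under 40 counts per library, which limits a ratio between mice to the intervals given.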
